A study of Mus musculus with 10 samples.

Results

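Cells clear glycosphingolipids, the sugar-bearing lipids that make up much of myelin and of neuronal membranes, inside the lysosome. There, soluble hydrolases remove 1 sugar or sulfate group after another, and small activator proteins lift the lipid out of the membrane so that the enzyme can reach it. Inherited loss of these enzymes or activators leads to storage diseases such as Tay-Sachs, Krabbe and Fabry disease and metachromatic leukodystrophy, and phagocytes that take up myelin debris depend on the same pathway. Here, the 8 genes of this group that were chosen by name are described, out of 55487 genes in the deposited table. They are the activators *Psap* and *Gm2a*, the ganglioside enzymes *Hexa*, *Glb1* and *Neu1*, the globoside enzyme *Gla*, and *Galc* and *Arsa*, which act on the myelin lipids galactosylceramide and sulfatide.

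The cells came from the spinal cord of 5 male mice, called m2, m6, m234, m235 and m236, with experimental autoimmune encephalomyelitis (EAE), a model of multiple sclerosis, at peak disease. All animals were of the genotype labelled Arg1tm1Lky (the reporter strain B6.129S4-Arg1tm1.1Lky/J) on a C57BL/6 background, in which cells that express *Arg1*, the gene of the arginine-degrading enzyme arginase 1, also make yellow fluorescent protein (YFP). They were 8 to 12 weeks old, the range that applied to all experiments. From each animal, viable CD45+CX3CR1+ cells without Ly6G and CD3 were sorted into 200000 YFP+ (ARG1+) and 100000 YFP- (ARG1-) cells, and the RNA of each sort was sequenced as 1 library, which gave 5 libraries per group. There was no group without EAE. This gate does not separate monocyte-derived cells from macrophages of the borders of the central nervous system, and the number of sorted cells cannot be told apart from the group. In bulk samples such as these, fewer cells of a type and less RNA per cell cannot be told apart either.

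Library totals ranged from 28870482 to 33826355 counts in ARG1+ cells and from 8396863 to 35455643 in ARG1- cells, with the lowest in the ARG1- library of m234. Levels are given in CPM, which are read counts relative to the library size after TMM scaling. *Arg1* was at 587 to 1047 CPM in ARG1+ and 14.3 to 26.9 CPM in ARG1- libraries, which fits the labels of the sort. Among the gate genes, *Ptprc*, which encodes CD45, was at 622 ± 37.4 and 726 ± 70.1 CPM (ARG1+ and ARG1-, SD, n = 5 each), *Cx3cr1* was at 139 ± 66.8 and 281 ± 176 CPM, and no library exceeded 0.129 CPM of *Ly6g* or 0.233 CPM of *Cd3e*. The summed level of 8 microglia markers was 99.4 to 223 CPM in ARG1+ and 148 to 1187 CPM in ARG1- libraries, and the highest sum was again in the ARG1- library of m234. In the fit described next, 0 of these 8 markers passed the test (6 were lower at an unadjusted p below 0.05 and 2 in DESeq2), and all 8 were lower in ARG1+ cells when the animal was a block. Of 3 tested markers of border-associated macrophages, *Mrc1* (60.9 ± 26.9 against 26.8 ± 12.1 CPM) and *Pf4* (17.3 ± 6.16 against 4.46 ± 2.31 CPM) were higher in ARG1+ cells. *Cd163*, *Lyve1* and *Cbr2* were too low to be tested, with means of 0.0386, 0.0966 and 0.902 CPM in ARG1+ cells. In ARG1- cells their means were 0.00555, 0.0485 and 0.628 CPM. The whole list of 6 summed to 157 to 321 against 111 to 204 CPM. Most of that was *Siglec1*, which did not pass the test but was higher in ARG1+ cells when the animal was a block. Of 6 monocyte markers 3 were lower and 0 higher (3 lower and 1 higher in DESeq2). With the animal as a block, 4 of the 6 were lower and 2 higher, beside 18.3% and 16.8% of all tested genes. Of 6 tested dendritic cell markers 5 were lower. All 8 listed dendritic cell markers together summed to 10.9 to 26.8 against 23.5 to 44.5 CPM. Much of this was *Clec9a*, the tested marker that was not lower, at 13.9 ± 5.67 and 11.7 ± 3.65 CPM. The part of these cell types in the results below was not tested.

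Most of the glycosphingolipid genes were modestly higher in ARG1+ cells. Of the 8 genes, all of which passed the filter on low counts, *Psap*, *Gm2a*, *Hexa*, *Glb1*, *Gla* and *Neu1* rose (edgeR's quasi-likelihood test, false discovery rate (FDR) below 0.05 over 13740 tested genes), *Galc* and *Arsa* did not pass the test and 0 fell, as all 8 fitted differences were above 0. Among all tested genes 6.82% were called higher and 6.15% lower, 13% in all. The log2 fold changes of the 8 genes ran from 0.13 to 0.59 with a median of 0.30, beside a median of -0.0022 over all tested genes, so that none reached 1 log2 unit, a limit that 0.56% of the tested genes passed upwards and 0.888% downwards. Of the tested genes 49.6% had a log2 fold change above 0. All 8 were higher in ARG1+ cells in each of the 5 animals, which held for 20% of the tested genes, while 21% were lower in each animal. In 6 of the 8 (not *Galc* and *Gla*) the lowest ARG1+ level exceeded the highest ARG1- level, as for 6.15% of the tested genes, and 5.2% had groups that did not overlap in the other direction. Together the 8 genes took 1.77 to 2.24% of the counts of an ARG1+ library and 1.25 to 1.47% of those of an ARG1- library. *Psap* alone held 89.7% ± 1.13 of that sum in ARG1+ and 88.1% ± 1.13 in ARG1- cells (SD, n = 5 each). Without *Psap* the sums were 1992 ± 89.5 and 1563 ± 78.7 CPM.

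The number of genes that passed the test depended on which animals were in the fit. Without both libraries of m2, 3 of the 8 were called, namely *Psap*, *Hexa* and *Glb1*. When any single library was left out, 4 or 5 were called. The share of all tested genes called in these fits was not determined, so these counts cannot be set against it. With the animal as a block, which compares the libraries within each animal, all 8 were called higher, beside 16.8% of all tested genes called higher and 18.3% called lower in that fit.

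**Figure D1:**
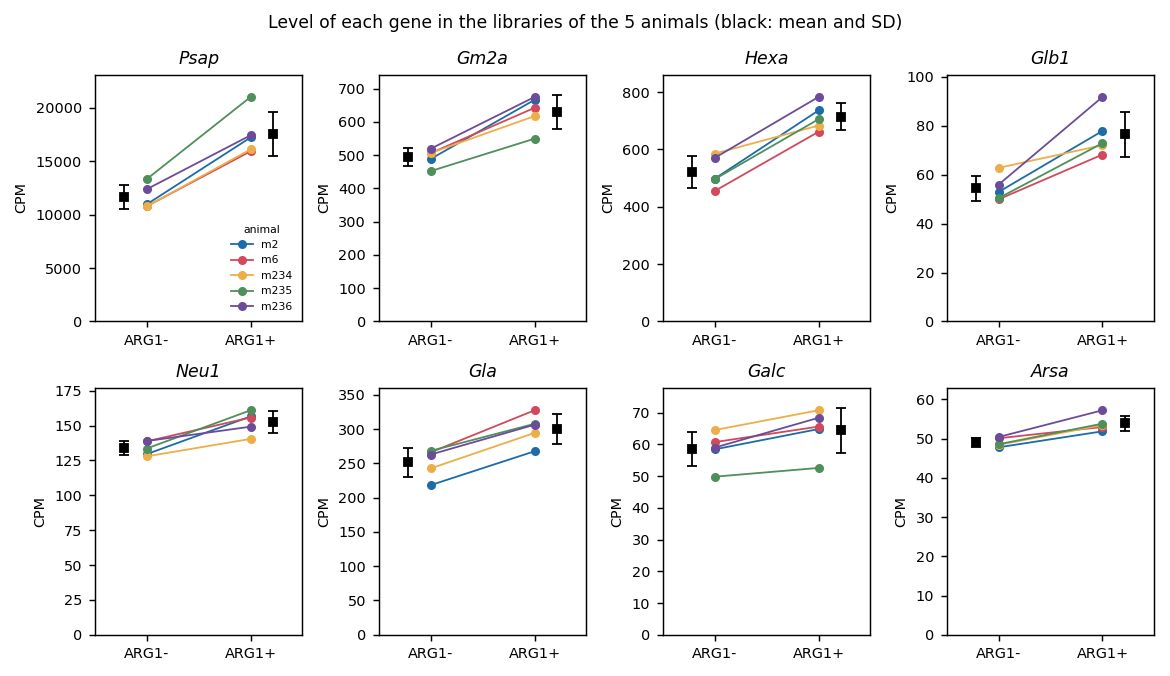
Level in CPM (vertical axes, from 0) of each of the 8 genes in the ARG1- and ARG1+ libraries of the 5 animals. Coloured points joined by a line are the libraries of 1 animal, and black squares with bars are the mean and SD of 5 libraries. Every line rises from ARG1- to ARG1+ cells.

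*Psap* encodes prosaposin, the precursor that is cut into the saposins, activators of several sphingolipid hydrolases. It lies on the plus strand of chr10:60277627-60302597 (GRCm38) and had the second highest mean level of the tested genes. Its level was 17218, 15930, 16103, 21011 and 17424 CPM in the ARG1+ libraries of m2, m6, m234, m235 and m236. In the ARG1- libraries of the same animals it was 10961, 10781, 10773, 13319 and 12377 CPM. Animal m235 was highest in both groups, and the groups did not overlap. The log2 fold change was 0.59 (standard error 0.101, 95% interval 0.37 to 0.81, FDR 0.00353), a rise of 50.6%, and it was the largest of the 8.

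*Gm2a* encodes the activator that presents GM2 ganglioside to beta-hexosaminidase A, and lies on the plus strand of chr11:55098115-55113029. Its ARG1+ levels in the same order of animals were 667, 643, 618, 550 and 675 CPM, against 489, 506, 507, 452 and 520 CPM in ARG1- cells. Animal m235, highest for *Psap*, was lowest for *Gm2a* in both groups, yet its ARG1+ library still lay above all ARG1- libraries. *Gm2a* rose by 0.35 on the log2 scale (standard error 0.0678, FDR 0.00694). The call held without any single library but not without both libraries of m2, where the FDR was 0.0514.

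*Hexa* encodes the alpha subunit of beta-hexosaminidase A, which cuts the terminal N-acetylgalactosamine from GM2, and lies on the plus strand of chr9:59539540-59565109. It was at 736, 662, 684, 705 and 783 CPM in the ARG1+ libraries of m2, m6, m234, m235 and m236, and at 498, 455, 586, 496 and 571 CPM in the ARG1- libraries. The groups did not overlap, and m234 had both the highest ARG1- level and the smallest step between its libraries. *Hexa* rose by 0.45 on the log2 scale (standard error 0.0794, FDR 0.00402). In the fits that left out 1 library, its rise ran from 0.41 without the ARG1- library of m6 to 0.50 without that of m234. Of the stretches of 50 bases in the *Hexa* exons, 10.6% also occur in *Tmem202*, which had a mean of 0.815 CPM in the ARG1+ group and of 0.972 CPM in the ARG1- group.

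*Glb1* encodes lysosomal beta-galactosidase, which removes the terminal galactose of GM1 ganglioside, and lies on the plus strand of chr9:114401076-114474898. Its levels were 77.8, 68.2, 72.0, 72.8 and 91.7 CPM in ARG1+ cells and 52.9, 49.9, 62.7, 50.4 and 55.9 CPM in ARG1- cells. As for *Hexa*, the ARG1- library of m234 was the highest of its group, and m236 had the highest ARG1+ level. *Glb1* rose by 0.50 on the log2 scale (standard error 0.0872, FDR 0.00408). With 1 library left out, its rise ran from 0.42 without the ARG1+ library of m236 to 0.55 without the ARG1- library of m234. On the same strand, 6.89% of the exon bases of *Glb1* overlap *Tmppe* (10.9 and 9.80 CPM), and reads in that part could not be assigned to 1 gene.

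*Neu1* encodes a lysosomal sialidase that takes sialic acid from gangliosides and glycoproteins, and lies on the plus strand of chr17:34931253-34935953. It was at 157, 156, 140, 161 and 149 CPM in ARG1+ and at 130, 139, 128, 134 and 139 CPM in ARG1- cells. The lowest ARG1+ library, that of m234, lay just above the highest ARG1- library. The log2 fold change was 0.19 (standard error 0.0516, FDR 0.0324, with the animal as a block 0.00379). Without a block this call was narrow. It was lost when any of 8 single libraries was left out (FDR 0.0505 to 0.0784) and held without the ARG1+ library of m234 (FDR 0.0170) or the ARG1- library of m236 (FDR 0.0435).

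*Gla* encodes alpha-galactosidase A, which cuts the terminal galactose of globotriaosylceramide, and lies on the minus strand of chrX:134588149-134601125. It was at 268, 327, 294, 308 and 306 CPM in ARG1+ and at 218, 266, 243, 268 and 263 CPM in ARG1- cells. The groups overlapped, since the ARG1+ library of m2 was slightly below the ARG1- library of m235, but m2 was lowest in both groups. The fitted difference was 0.26 on the log2 scale (standard error 0.0727, FDR 0.0381), and within the animals it ran from 0.20 to 0.30. With the animal as a block the FDR of *Gla* was 3.55e-04. In the fits with no block, the call was here too lost without any of 8 single libraries (FDR 0.0512 to 0.0934). It held without the ARG1+ library of m2 (FDR 0.0316) or the ARG1- library of m235 (FDR 0.0397).

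*Galc* and *Arsa*, whose products act on the galactolipids of myelin, had the smallest differences of the 8 genes. *Galc* encodes galactosylceramidase and lies on the minus strand of chr12:98202294-98259459. Its levels were 64.8, 65.6, 70.7, 52.6 and 68.4 CPM in ARG1+ and 58.4, 60.7, 64.5, 49.8 and 59.0 CPM in ARG1- cells. The spread between animals was wider than the step within them, with m235 lowest and m234 highest in both groups. For *Galc* the fitted log2 fold change was 0.14 (95% interval -0.046 to 0.33, standard error 0.0865, FDR 0.292). With the animal as a block the FDR was 0.0145.

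*Arsa* encodes arylsulfatase A, which removes the sulfate of sulfatide, and lies on the minus strand of chr15:89472476-89477425. Its levels were 51.8, 53.0, 53.5, 53.8 and 57.2 CPM in ARG1+ and 47.8, 50.1, 48.4, 48.6 and 50.4 CPM in ARG1- cells. The groups did not overlap, although the step was small. The log2 fold change was 0.13 (standard error 0.0450, 95% interval 0.036 to 0.23, FDR 0.0698), with an FDR of 0.0163 with the animal as a block and of 0.0429 in DESeq2. Of the exon bases of *Arsa*, 19.8% lie opposite *C230037L18Rik*, a gene on the other strand with 1.15 and 0.992 CPM, and the sources used here do not say if reads were counted by strand. The 95% interval of *Psap* lay above those of *Neu1*, *Galc* and *Arsa*, but the differences between genes were not tested.

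**Figure D2:**
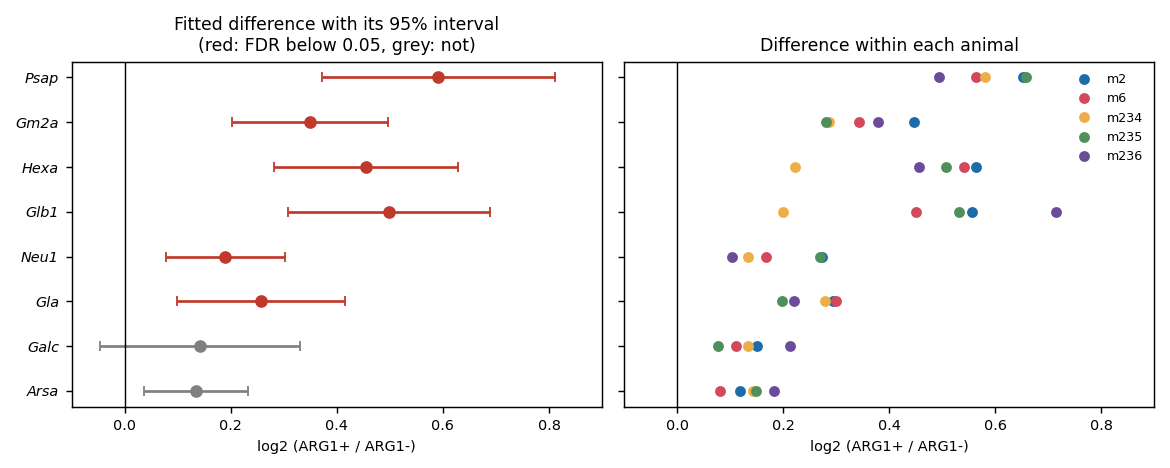
Difference between ARG1+ and ARG1- cells on the log2 scale (horizontal axes) for the 8 genes. Left, the fitted log2 fold change with its 95% interval, in red where the FDR was below 0.05. Right, the log2 ratio of CPM within each of the 5 animals, where all 40 values are above 0 and m234 lies apart on the low side for *Hexa* and *Glb1*.

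The 8 genes differed far more from each other in level than between the groups. Per kb of exon, the mean level in ARG1+ cells was 6391 CPM for *Psap*, 358 for *Hexa*, 153 for *Gm2a*, 94.8 for *Gla*, 61.7 for *Neu1*, 31.9 for *Glb1*, 16.8 for *Galc* and 15.4 for *Arsa*. In ARG1- cells the order was the same, from 4243 CPM per kb for *Psap* to 14.0 for *Arsa*. The libraries of neighbours in this order did not overlap in either group, except those of *Galc* and *Arsa*, which overlapped in both. The transcripts of the activator precursor thus stood above those of each enzyme in every library.

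**Figure D3:**
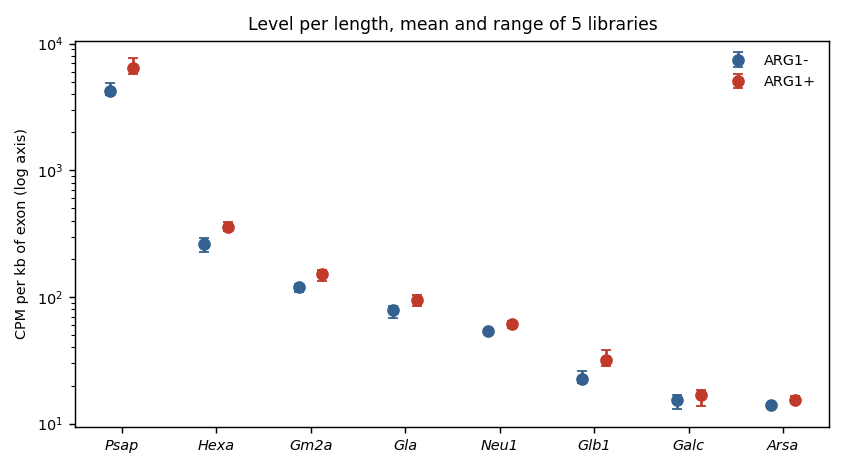
Level per kb of exon in CPM (log axis) of the 8 genes in ARG1- (blue) and ARG1+ (red) cells, with points at the mean of 5 libraries and bars from the lowest to the highest library. *Psap* is highest at 6391 and 4243 CPM per kb, and *Galc* and *Arsa* overlap at the low end.

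Ratios of counts within a library show how the transcripts of partner proteins stood to each other, and are given as descriptions without a test. The *Gm2a* to *Hexa* ratio, activator to enzyme subunit, was 0.884 ± 0.0705 in ARG1+ and 0.956 ± 0.0969 in ARG1- cells (SD, n = 5 each), with overlapping groups. The *Psap* to *Galc* ratio was 278 ± 69.4 and 202 ± 39.9, higher in ARG1+ cells in all 5 animals, but also overlapping. Beta-galactosidase and the sialidase form a complex with cathepsin A, encoded by *Ctsa*. The *Neu1* to *Ctsa* ratio was 0.162 ± 0.0115 in ARG1+ and 0.181 ± 0.0104 in ARG1- cells and was lower in ARG1+ cells in all 5 animals, whereas the *Glb1* to *Ctsa* ratio was 0.0809 ± 0.00722 and 0.0734 ± 0.00553 and was higher in all 5. Against their shared partner, the transcripts of these enzymes thus stood in opposite directions by value, although the groups overlapped for both ratios.

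Start sites of the 8 genes were searched for the E-box CACGTG, the core of the element through which TFEB and related factors act on lysosomal genes, because the 8 genes had differences of the same sign. RefSeq windows (GRCm38.p6) from 250 bases before to 50 bases after the start were at hand for all 8 genes, and both strands were searched. The E-box was present in 3 of the 8 genes, compared with 7.15% of 32851 windows and 12.1% of 9027 tested genes with a window. In the 4 related lists described below, it was present in 5 of 11 genes for partners and delivery of the hydrolases. It was present in 3 of 14 other lysosomal hydrolases and lipid exporters, 2 of 13 synthesis genes and 0 of 4 other sphingolipid hydrolases. The longer form TCACGTGA, which contains the E-box, was present in *Gla*, compared with 2.29% of those tested genes. This form was also present in 4 of the 11 partner and delivery genes, and in 0 genes of the other lists. The full element, which extends this form by a base on each side, was also searched. It was present in 0 of the 8 genes, compared with 0.875% of those tested genes and 1 of the 11 partner and delivery genes. A match is a description of the sequence and not a binding site, and factor binding was not measured here. The stretches that hold a match are shown 5′ to 3′ on the strand of the gene, to the start site at the latest, with the longest form found in capitals. In *Gla* (chrX:134601167-134601255) the E-boxes begin 227 and 194 bases before the start, in *Glb1* (chr9:114401003-114401062) 48 bases and in *Arsa* (chr15:89477425-89477467) 16 bases. The RefSeq start used for *Gla* lies inside the gene range given above, downstream of its 5′ end.
Gla: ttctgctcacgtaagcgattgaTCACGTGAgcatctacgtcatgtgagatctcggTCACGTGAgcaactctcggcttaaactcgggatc
Glb1: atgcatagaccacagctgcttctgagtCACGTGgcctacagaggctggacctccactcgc
Arsa: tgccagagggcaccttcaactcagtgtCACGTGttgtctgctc
*Glb1* was among the genes with the larger differences (0.50), *Gla* was in the middle (0.26) and *Arsa* was lowest (0.13), while no E-box was found in the windows of *Psap*, *Hexa*, *Gm2a*, *Neu1* and *Galc*.

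The other genes of the pathway were taken from 4 lists of 57 genes, of which 48 were tested. In all, 19 of the 48 rose and 2 fell, with a median log2 fold change of 0.22, beside 6.82% of all tested genes called higher and 6.15% called lower. Without the libraries of m2, 12 rose and 2 fell, in a fit for which the share of all tested genes was not determined. With the animal as a block, 27 rose and 6 fell, beside 16.8% and 18.3% of all tested genes. In the lists where 0 fell, an unadjusted p below 0.05 and DESeq2 also gave 0 lower genes.

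Of the other lysosomal sphingolipid hydrolases, 3 of 6 tested genes rose and 0 fell (median 0.19). *Smpd1*, which encodes acid sphingomyelinase, was at 20.0 ± 1.59 CPM in ARG1+ cells against 15.2 ± 1.16 CPM (log2 fold change 0.40, FDR 0.00725). *Asah1*, which encodes acid ceramidase, was at 427 ± 21.7 and 360 ± 9.32 CPM (0.25, FDR 0.0108). Without both libraries of m2 or of m6, *Asah1* did not pass the test (FDR 0.0641 and 0.0666).

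Of the genes whose products stabilise the hydrolases or carry them to the lysosome, 5 of 11 tested rose and 0 fell (median 0.27). *Sort1*, which encodes sortilin, a sorting receptor of prosaposin and the GM2 activator, had the largest difference at 110 ± 18.6 against 70.7 ± 8.30 CPM (log2 fold change 0.64, FDR 0.00553). *Igf2r*, the gene of the large mannose 6-phosphate receptor, was at 293 ± 29.5 and 206 ± 33.6 CPM (0.50, FDR 0.0121). *Lrp1*, whose product takes up prosaposin from outside the cell, had the most counts of the list at 3061 ± 350 and 2239 ± 156 CPM (0.45, FDR 0.00645). The other 2 that rose, named after their values were seen, were *Ctsa* at 0.35 (FDR 0.00632) and *Scarb2*, which encodes a lysosomal membrane protein, at 0.29 (FDR 0.0372). *Grn*, named likewise, encodes progranulin, a binding partner of prosaposin, and was at 2415 ± 331 and 1996 ± 139 CPM (0.27), without passing the test (FDR 0.0801, with the animal as a block 0.00394). Without both libraries of m2, *Igf2r*, *Ctsa* and *Scarb2* had FDRs of 0.0663, 0.0501 and 0.149. Without those of m6, *Igf2r* was at 0.0534 and *Scarb2* at 0.0805. *Scarb2* also had an FDR of 0.0707 to 0.0867 in each of the 5 fits that left out an ARG1+ library (m2, m235, m236) or an ARG1- library (m2, m6) singly.

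Of 13 tested genes of glycosphingolipid synthesis 0 rose and 2 fell, with a median log2 fold change of -0.15. Beside these small counts, 6.82% of all tested genes were called higher and 6.15% lower, and the list was not tested against those shares. At an unadjusted p below 0.05 the counts were 2 and 4, and DESeq2 called 0 higher and 3 lower. *Ugcg*, whose product makes glucosylceramide, the first step towards gangliosides and globosides, was at 97.5, 128, 112, 99.3 and 118 CPM in ARG1+ and at 136, 162, 133, 147 and 169 CPM in ARG1- libraries. The groups did not overlap, and the fitted log2 difference of *Ugcg* was -0.43 (standard error 0.0905, FDR 0.0104). *B3gnt5*, whose product starts the lacto-series glycolipids, was at 53.3, 46.5, 45.3, 58.8 and 46.6 CPM in ARG1+ and 78.1, 71.5, 56.6, 79.7 and 66.4 CPM in ARG1- libraries. It was lower in ARG1+ cells in all 5 animals, although the ARG1+ library of m235 lay above the ARG1- library of m234, and its log2 fold change was -0.50 (95% interval -0.72 to -0.28, FDR 0.00838). Without both libraries of m6 the FDR of *B3gnt5* was 0.0606. *Cers6*, a ceramide synthase and the gene of this list with the most counts, was at 278 ± 19.6 and 307 ± 39.8 CPM (-0.15, FDR 0.281, with the animal as a block 0.0225). With that block, 1 gene of the list rose and 6 fell, beside 16.8% and 18.3% of all tested genes.

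Lysosomal hydrolases and lipid exporters outside the sphingolipid pathway were also higher in part. Of these 18 genes, all tested, 11 rose and 0 fell, with a median log2 fold change of 0.40, which lay above the median of 0.30 of the 8 glycosphingolipid genes. The difference between the lists was not tested. *Lipa*, the gene of lysosomal acid lipase, was at 314 ± 13.9 and 203 ± 10.2 CPM (0.63, FDR 1.10e-04), and *Sgsh*, whose product degrades heparan sulfate, was at 45.5 ± 6.55 and 30.0 ± 4.87 CPM (0.61, FDR 0.00862). *Npc2*, which encodes a cholesterol carrier of the lysosome and had the most counts of the list, was at 1551 ± 177 and 1593 ± 175 CPM (-0.038, FDR 0.828).

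**Figure D4:**
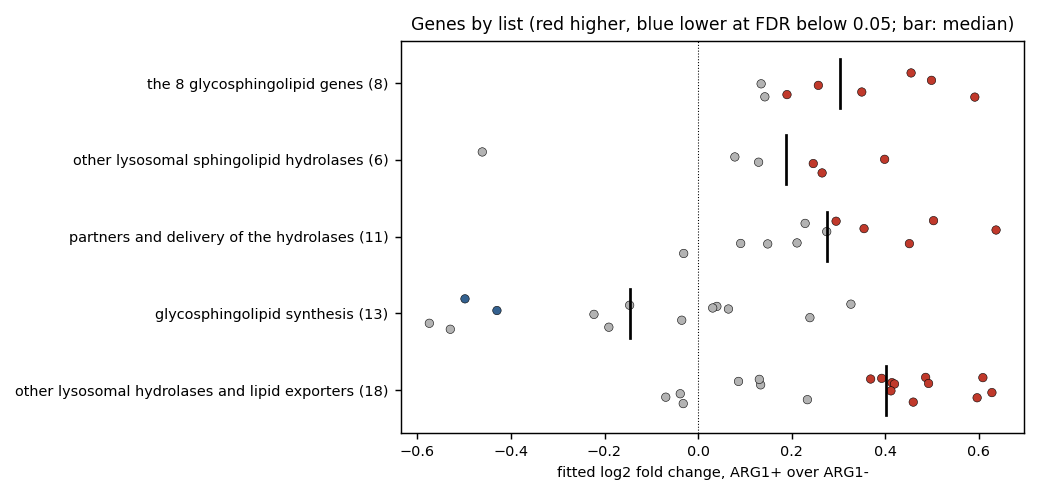
Fitted log2 fold change (horizontal axis) of the 8 genes and of the tested genes of 4 lists, with the number of genes in brackets. Each point is a gene, red if higher and blue if lower in ARG1+ cells at an FDR below 0.05, and the black bar is the median of the list, which is below 0 for synthesis alone.

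The genes with the profile most like that of the 8 genes were found from the mean of their log2 CPM over the 10 libraries, each centred on its own mean. The root mean square distance to this profile was 0.0346 for *Nbr1*, 0.0493 for *Crot*, 0.0525 for *Kif16b*, 0.0527 for *Tmem94* and 0.0564 for *Tmco1*, and the median over the tested genes was 0.238. Of the 8 genes themselves *Gm2a* was nearest to their mean profile at 0.0750 and *Psap* was farthest at 0.192. These 5 outside genes had log2 fold changes of 0.27 (*Kif16b*) to 0.32 (*Nbr1*).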

How the data were processed

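Counts per Ensembl gene of 10 libraries were used as deposited, without normalization. The authors had read 50 bases from 1 end of strand-specific libraries, aligned them with STAR (2.7.10b per the submitters' processing notes) to GRCm38 and counted them with summarizeOverlaps in Union mode. That mode drops reads over more than 1 feature, which lowers the counts of overlapping genes. Groups and animals came from the titles.

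The 13740 genes that exceeded 1 CPM in 3 or more libraries went into edgeR's quasi-likelihood test (edgeR 4.0.16, R 4.3.3, TMM, no block, as no block is given in the study's methods) at a Benjamini-Hochberg FDR below 0.05. Alternatives were DESeq2 1.42.0, limma-trend (limma 3.58.1), other scalings and filters, a log2 limit of 1, the animal as a block, and fits without each library or animal. The titles pair the libraries by animal. Deviations from the group means correlated across genes (not independent replicates) at 0.397 to 0.691 within an animal and at no more than 0.0786 between animals. The fits were tested on simulated data. Within groups, libraries were distinct (chi-square over degrees of freedom of 14.4 to 57.8). Each sort came from 1 animal. Library totals ran from 8396863 to 35455643 counts, and their part in the precision of the fits was not tested.

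The 8 genes, the lists and the tests were chosen with earlier results of these data known. The genes named are the 8 genes, *Arg1*, all genes past the limit in the list of other sphingolipid hydrolases, and in each other list the gene with the most counts and the 2 largest increases and decreases past the limit. The rule adds the 5 nearest profiles and, from the marker lists, the gene with the most counts, *Chil3*, and that with the largest change, *Flt3*. Other genes were named after their values were seen. Some results that this rule would give are not reported here. Exon lengths and overlaps came from a GENCODE annotation of GRCm38.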

Additional observations from a re-analysis of the deposited data

Results flagged for a closer look

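The *Psap* to *Galc* count ratio of the ARG1+ library of m235 was 399.7, far from the next highest ARG1+ library at 266. This library had the highest *Psap* and the lowest *Galc* level of its group, and the ARG1- library of m235 also had the highest ratio of its group at 267. It was the only distant library among 34 groups of 5 values that were checked, of which chance flags about 1 in 20.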

How the results depend on the processing

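The direction of all 8 genes was the same in every alternative that was run. Under other scalings, filters and tests 4 to 8 of the 8 were called higher and 0 lower, and when 1 library or both libraries of an animal were left out 3 to 5 were called, with the lowest count without m2. Apart from the block and the limit of 1 log2 unit, the share of all tested genes called was not determined for these alternatives. A limit of 1 log2 unit left 0 of the 8. *Psap*, *Hexa* and *Glb1* passed the test in all 15 fits that left out a library or an animal, *Gm2a* in 14, *Neu1* in 3, *Gla* in 2, and *Galc* and *Arsa* in 0. These fits had no block for the animal. With total counts and no scaling factor *Gla* and *Neu1* had FDRs of 0.0514 and 0.0758, and with no filter on low counts *Neu1* had an FDR of 0.0840. The cause was not tested.

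Of the 48 other tested genes of the pathway, 12 to 22 were called higher and 1 to 3 lower when libraries or animals were left out, with 12 without m2, 22 without m234 and 1 lower without m6. With the limit of 1 log2 unit 0 were higher and 0 lower, and a replicate block for the animal gave 27 higher and 6 lower. Beyond the changes given above, the block changed no call of a glycosphingolipid or listed gene named here. *Npc2*, which did not pass the test, changed sign without the ARG1+ library of m2 or m6 or the ARG1- library of m235 and ranged from -0.090 to 0.018 over all fits that left out libraries. The lowest total, 8396863 counts, still gave 412 *Arsa* and 534 *Glb1* counts in the ARG1- library of m234. The effect of depth on the fits was not tested. Neither the other scalings, filters and tests nor the block moved the median log2 fold change of all tested genes by over 0.1. The fits that left out libraries were not checked for this.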

Other observations

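Of the marker genes, *Chil3* had the most counts with a mean of 3536 ± 2034 CPM in the ARG1+ group and of 2793 ± 1717 CPM in the ARG1- group (n = 5 each, SD, edgeR FDR 0.664). It was higher in ARG1+ cells in all 5 animals, and with the animal as a block the edgeR FDR was 0.00132. *Flt3*, a dendritic cell marker, had the largest change among those past the limit, at 0.289 ± 0.140 against 3.63 ± 1.47 CPM (log2 fold change -3.59, FDR 2.40e-04). Markers of T cells, NK cells and neurons summed to at most 2.80, 2.00 and 0.277 CPM in any library. Markers of oligodendrocytes, the cells that make myelin, summed to 147 to 180 CPM in ARG1+ and 137 to 197 CPM in ARG1- libraries, and 0 of 5 tested passed the test (1 higher and 1 lower at an unadjusted p below 0.05 and in DESeq2). Neutrophil markers summed to 131 to 321 and 64.1 to 185 CPM, with 1 of 3 tested lower in ARG1+ cells and 0 higher. With the animal as a block, 2 of the 3 were higher and 1 was lower, beside 16.8% and 18.3% of all tested genes. B and plasma cell markers summed to 2.46 to 8.83 and 11.5 to 30.5 CPM, with 2 of 3 lower, and astrocyte markers summed to 3.75 to 7.46 and 5.14 to 14.4 CPM, with 1 of 3 higher. Monocyte markers summed to 2579 to 9066 and 2611 to 7814 CPM. The part of these cell types in the glycosphingolipid results was not tested.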
